A study of Mus musculus with 12 samples.

Results

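Levels of 7 genes of the endocannabinoid system were followed in the mouse hippocampus after ethanol exposure through the dam, maternal separation stress, or both. The members were chosen by name: the cannabinoid receptor gene Cnr1, the synthesis genes Napepld, Dagla and Daglb, and the breakdown genes Faah, Mgll and Abhd6. All 7 were measured and passed the filter on low values, out of 18434 genes tested. Each mouse was a male of the strain C57BL/6, killed on postnatal day 70, and gave 1 RNA library from the dissected hippocampus, with 3 mice in each of 4 groups. Control mice had dams that drank water and were left with the dam. Ethanol mice had dams that chose freely between water and 10% ethanol from the start of gestation up to postnatal day 10 and were also left with the dam. Per the paper, these dams had also been offered ethanol before mating, at concentrations rising to 10%, and only water during mating. Stress mice had water-drinking dams and were isolated from dam and littermates for 3 h a day from postnatal day 2 to 14. Ethanol + stress mice had both exposures. The intake of ethanol was voluntary and blood levels were not taken, so the dose each pup received is not known. Stress was assigned within litters, and the litter of each mouse is not given, so mice of a group, or of a group and its separated counterpart, may be littermates. The tests therefore measure the spread between these 12 mice and their libraries.

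Endocannabinoids are lipid messengers made on demand in the postsynaptic cell, which travel back across the synapse and act on the receptor CB1, the product of Cnr1, to reduce transmitter release. 2-arachidonoylglycerol is made by the diacylglycerol lipases and broken down mainly by monoacylglycerol lipase (Mgll), while anandamide can be made by NAPE-PLD (Napepld) and is broken down by fatty acid amide hydrolase (Faah). In the hippocampus CB1 is most abundant on the terminals of cholecystokinin interneurons and is also found, at a lower density, on glutamatergic terminals.

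The receptor gene has 2 main transcripts with starts of their own, and the DNA before each is shown with that of Mgll, the most abundant of the enzyme genes, and Faah for comparison. Each sequence is the part of a RefSeq promoter window (GRCm38.p6) that lies before the first base of the named GENCODE transcript, written in the direction of transcription, with every CG dinucleotide in capitals (the G of the last one before Mgll-204 is the first base of the transcript). The stretches lie at chr4:33924394-33924631 (plus strand), chr4:33926130-33926201 (plus strand), chr6:88724162-88724411 (plus strand) and chr4:116017927-116018174 (minus strand).
before Cnr1-201: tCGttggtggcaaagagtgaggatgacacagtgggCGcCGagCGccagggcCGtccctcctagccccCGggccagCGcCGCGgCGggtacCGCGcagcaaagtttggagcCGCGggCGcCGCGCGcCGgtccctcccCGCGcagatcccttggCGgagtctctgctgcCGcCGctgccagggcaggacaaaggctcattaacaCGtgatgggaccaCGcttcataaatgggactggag
before Cnr1-202: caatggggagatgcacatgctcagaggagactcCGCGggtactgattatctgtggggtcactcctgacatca
before Mgll-204: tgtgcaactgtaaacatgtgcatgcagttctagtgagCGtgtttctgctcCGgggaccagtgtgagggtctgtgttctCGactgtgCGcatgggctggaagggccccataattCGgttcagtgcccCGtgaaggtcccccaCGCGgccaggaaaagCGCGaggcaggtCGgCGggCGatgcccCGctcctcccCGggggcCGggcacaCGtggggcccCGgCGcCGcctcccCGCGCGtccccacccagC
before Faah-201: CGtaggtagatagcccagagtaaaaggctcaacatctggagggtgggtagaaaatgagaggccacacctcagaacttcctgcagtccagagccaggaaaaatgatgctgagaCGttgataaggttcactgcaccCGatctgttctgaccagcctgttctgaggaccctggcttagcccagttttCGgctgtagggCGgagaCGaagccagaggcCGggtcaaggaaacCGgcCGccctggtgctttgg
The stretch before Cnr1-201 held 26 CG in 238 bases, and that before Cnr1-202, which lies inside the first intron of Cnr1-201, held 2 in 72 bases. The whole windows of 300 bases held 33 and 5 CG, 32 for Mgll-204 and 16 for Faah-201, beside a median of 7 over all 32851 RefSeq windows of that length. Of the 7 genes, 6 had a window in the RefSeq table. The counts describe the letters only.

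The values are TPM, a measure of transcript abundance corrected for transcript length, which the authors scaled between libraries and which were summed here over the transcripts of a gene. Levels of different genes can therefore be set side by side. Each library rests on 12050000 to 14880000 read pairs, as recovered from the steps between low values. In 3 libraries, ethanol replicate 2 and ethanol + stress replicates 2 and 3, the values summed to over 1100000 (1126490 to 1173650), against 889222 to 1024269 in the other 9, and the most abundant transcript took 7.02 to 7.57% of the sum against 4.50 to 6.11%. Differences of Cnr1, Dagla and Mgll are given with and without these 3 libraries. Mgll was the highest of the 7, with a median of 93.9 TPM over the 12 libraries, and Cnr1 followed at 82.1 TPM. Mgll exceeded Cnr1 in 11 of 12 libraries, and the ranges of the pair overlapped. Faah stood at a median of 50.1 TPM and was below Cnr1 in 11 of 12 libraries. Abhd6 followed at 38.6 TPM, Dagla at 21.7 TPM, Daglb at 17.6 TPM and Napepld at 13.1 TPM. The ranges of Faah and Abhd6, of Abhd6 and Dagla, and of Daglb and Napepld did not overlap, whereas Dagla was above Daglb in only 9 of 12 libraries. Each breakdown gene thus stood above each of the synthesis genes.

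**Figure D1:**
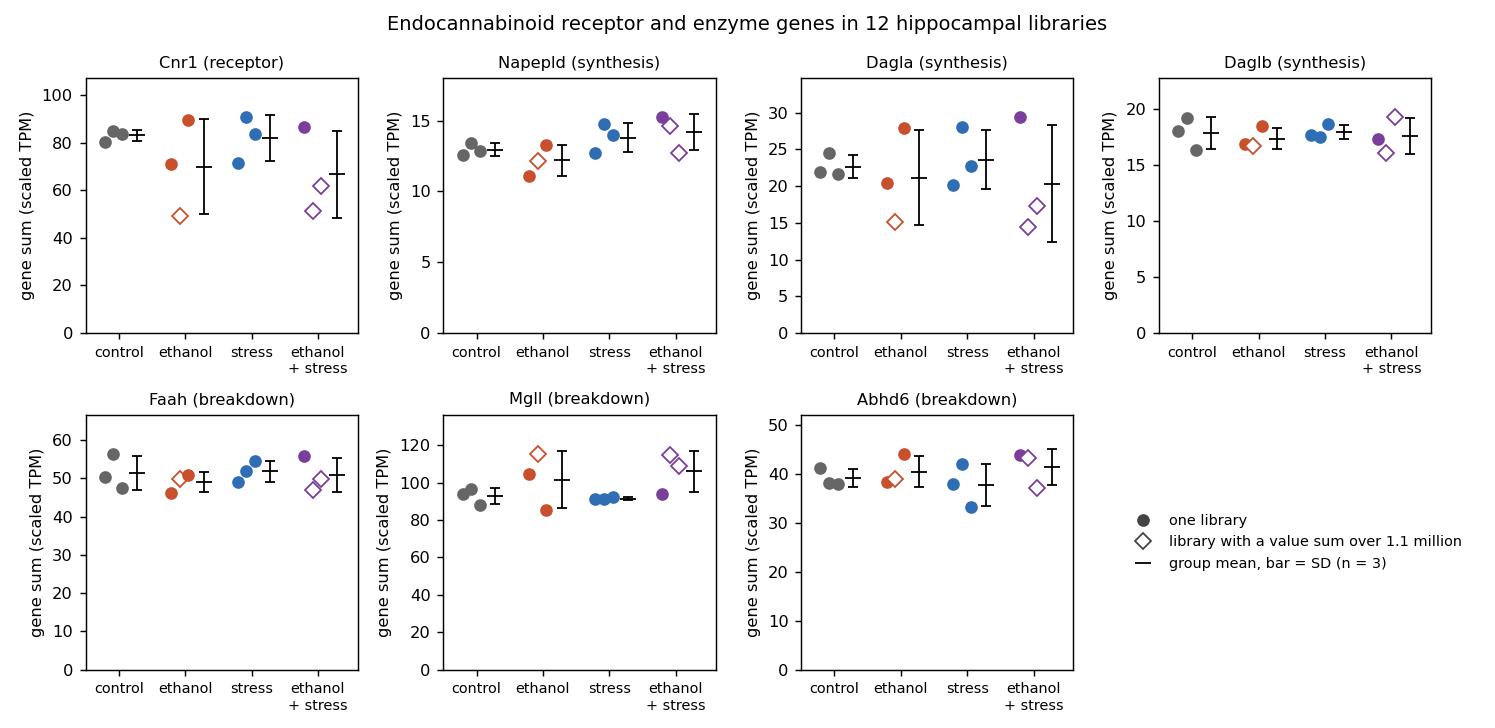
Gene sums in scaled TPM (vertical axes, starting at 0) of the 7 genes in each library by group, with the mean and SD of 3 mice beside the points. Open diamonds are the 3 libraries whose deposited values sum to over 1100000; they lie lowest for Cnr1 (49.4 to 61.9 TPM) and Dagla (14.4 to 17.2 TPM) and highest for Mgll (109 to 115 TPM).

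Cnr1 (ENSMUSG00000044288.6, chromosome 4, 33924593 to 33948831, plus strand, GRCm38) encodes the receptor CB1, which couples to Gi proteins. Its level was 80.5, 85.2 and 83.7 TPM in the control mice and 71.0, 49.4 and 89.6 TPM in the ethanol mice. It was 71.6, 90.8 and 83.8 TPM in the stress mice and 86.8, 51.5 and 61.9 TPM in the ethanol + stress mice. The control mice lay close together (83.1 ± 2.36 TPM, SD, n = 3), while the ethanol (70.0 ± 20.1 TPM) and ethanol + stress (66.7 ± 18.2 TPM) groups each reached from below to above the control range. Both mean levels were lower than in control, and neither difference passed the test: the log2 difference was -0.29 in ethanol (95% interval -0.75 to 0.18, adjusted p = 0.997) and -0.35 in ethanol + stress (-0.81 to 0.11, adjusted p = 0.791). Over both ethanol-exposed groups against both groups without ethanol it was -0.31 (-0.63 to 0.02, adjusted p = 0.760). These values rest on 2026 to 4638 read pairs per library, so counting error is small beside the spread between libraries. With 1 library per mouse, mouse and library preparation cannot be told apart, and RNA quality is not given in the sources used here. Without ethanol replicate 2 and ethanol + stress replicates 2 and 3 the difference of the ethanol-exposed mice was 0.014 (adjusted p = 0.994) and that of the remaining ethanol + stress mouse from control 0.063 (adjusted p = 0.979). The 2 remaining ethanol mice then differed from control by -0.059. With 1 library left out at a time, the difference in ethanol ran from -0.48 (without ethanol replicate 3) to -0.059 (without replicate 2), and that in ethanol + stress from -0.55 (without its replicate 1) to -0.18 (without its replicate 2).

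Napepld (ENSMUSG00000044968.16, chromosome 5, 21662901 to 21701396, minus strand) encodes the phospholipase D that releases N-acylethanolamines such as anandamide from their membrane precursor. It stood at 12.6, 13.4 and 12.9 TPM in control, 11.1, 12.2 and 13.3 TPM in ethanol, 12.7, 14.8 and 14.0 TPM in stress and 15.2, 14.6 and 12.7 TPM in ethanol + stress. The separated groups reached higher than the others, and all ranges overlapped. The log2 difference of separated against not separated mice was 0.15 (95% interval -0.02 to 0.32, adjusted p = 0.9999).

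Dagla (ENSMUSG00000035735.10, chromosome 19, 10245265 to 10304877, minus strand) encodes diacylglycerol lipase alpha, the main source of 2-arachidonoylglycerol at synapses. Its level was 21.9, 24.4 and 21.6 TPM in control, 20.4, 15.1 and 27.9 TPM in ethanol, 20.1, 28.01 and 22.7 TPM in stress and 29.4, 14.4 and 17.2 TPM in ethanol + stress. The highest and the lowest of all 12 values were both in the ethanol + stress group, whose SD (7.95 TPM around a mean of 20.3 TPM) was the widest. The log2 difference from control was -0.14 in ethanol (95% interval -0.70 to 0.42, adjusted p = 0.997) and -0.22 in ethanol + stress (-0.77 to 0.34, adjusted p = 0.827). Without the same 3 libraries these differences were 0.075 and 0.37, on the other side of 0. The first did not pass the test, and the second rests on 1 remaining ethanol + stress mouse. With 1 library left out at a time, the difference in ethanol ran from -0.36 (without ethanol replicate 3) to 0.075 (without replicate 2), and that in ethanol + stress from -0.51 (without its replicate 1) to -0.0073 (without its replicate 2).

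Daglb (ENSMUSG00000039206.13, chromosome 5, 143464584 to 143505942, plus strand), the beta form of the lipase, was the steadiest of the 7 genes, at 16.1 to 19.3 TPM over all mice (coefficient of variation 5.98%). The test for any difference among the 4 groups gave an adjusted p = 0.998 (limma). Its group means lay between 17.4 and 18.0 TPM.

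Faah (ENSMUSG00000034171.13, chromosome 4, 115967145 to 116017926, minus strand), which hydrolyses anandamide, stood at 50.3, 56.4 and 47.5 TPM in control, 46.1, 49.9 and 50.9 TPM in ethanol, 49.0, 51.9 and 54.6 TPM in stress and 55.8, 46.9 and 49.9 TPM in ethanol + stress. The 4 groups covered much the same range, and the 4-group test gave an adjusted p = 0.998 (limma). Over all 6 comparisons its 95% intervals stayed between -0.27 and 0.33 on the log2 scale.

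Mgll (ENSMUSG00000033174.17, chromosome 6, 88724412 to 88828360, plus strand) encodes monoacylglycerol lipase, which ends the signal of most 2-arachidonoylglycerol in the brain. It stood at 93.8, 96.4 and 87.9 TPM in control, 104, 115 and 85.1 TPM in ethanol, 91.1, 91.1 and 92.3 TPM in stress and 94.0, 115 and 109 TPM in ethanol + stress. The stress mice were almost alike (91.5 ± 0.70 TPM, SD, n = 3), 4 of the 6 ethanol-exposed mice lay above 100 TPM, and ethanol replicate 3 was the lowest of all. The log2 difference from control was 0.12 in ethanol (95% interval -0.12 to 0.36, adjusted p = 0.997) and 0.19 in ethanol + stress (-0.05 to 0.43, adjusted p = 0.791). Over both ethanol-exposed groups it was 0.16 (-0.01 to 0.34, adjusted p = 0.760). Leaving out ethanol replicate 3 brought it to 0.22, past the unadjusted threshold of 0.01 that is used for calls here (adjusted p = 0.425), and leaving out the 3 libraries named for Cnr1 brought it to 0.032 (adjusted p = 0.976). Without those 3 libraries the differences from control were 0.025 in ethanol and 0.022 in ethanol + stress, where 1 mouse was left. With 1 library left out at a time they ran from 0.025 (without ethanol replicate 2) to 0.24 (without ethanol replicate 3) in ethanol and from 0.13 to 0.27 in ethanol + stress. With each library set to a common total of 1000000 in place of the deposited scaling, the difference over both ethanol-exposed groups was 0.06 for Mgll and -0.40 for Cnr1. The median of all genes in the same comparison moved from 0.02 to -0.06.

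Abhd6 (ENSMUSG00000025277.14, chromosome 14, 8002902 to 8056763, plus strand), a membrane hydrolase that takes a smaller part of 2-arachidonoylglycerol breakdown, ranged from 33.2 to 44.0 TPM. Its group means were 39.1 TPM in control, 40.4 TPM in ethanol, 37.7 TPM in stress and 41.3 TPM in ethanol + stress, and the 4-group test gave an adjusted p = 0.998 (limma). Of the 31-base stretches of its main transcript Abhd6-202, 11.1% also occur in transcripts of other genes, so part of its value depends on how shared reads were divided.

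At an unadjusted limma p under 0.01, 0 of the 7 genes were called in any of the 6 comparisons. Among all 18434 genes the share called was 0.678% for ethanol, 0.51% for stress and 0.971% for ethanol + stress against control, 0.461% for the interaction of ethanol and stress, 1.12% for all ethanol-exposed mice and 0.586% for all separated mice. The 42 tests of the members gave p from 0.0598 to 0.964, and no adjusted p was under 0.760. At p under 0.05 the members' count was also 0 in every comparison, where 3.63% of all genes passed for ethanol, 2.4% for stress, 5.37% for ethanol + stress, 2.69% for the interaction, 5.79% for all ethanol-exposed and 3.28% for all separated mice. The test for any difference among the 4 groups called 0 of 7 members and 0.721% of all genes. The gene sums of 0 of 7 members were apart between control and ethanol, control and stress, or control and ethanol + stress, where 8.25%, 7.2% and 10.2% of all genes were. The same count of 0 held between the 6 ethanol-exposed mice and the others (0.347% of all genes apart) and between the 6 separated mice and the others (0.103%). For Daglb, Faah and Abhd6 the 95% intervals of the differences from control stayed within 0.31 of 0 on the log2 scale, while for Cnr1 and Dagla they reached -0.81 and -0.77.

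**Figure D2:**
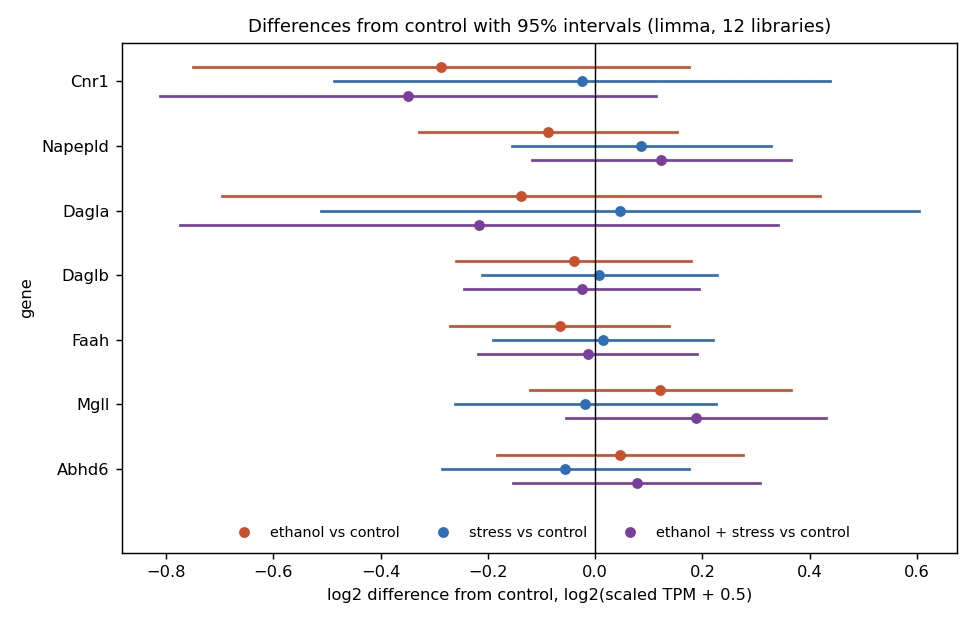
Log2 differences of ethanol, stress and ethanol + stress mice from control (horizontal axis, on log2(scaled TPM + 0.5)) for each gene, as points with 95% limma intervals. All 21 intervals include 0; those of Cnr1 and Dagla are the widest, reaching -0.81 and -0.77 in ethanol + stress.

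Some pairs of the members varied together over the 12 libraries. No share of such pairs among all genes was taken, so this cannot be called particular to these genes. Acsl1, for example, followed Cnr1 more closely (r = 0.989) than any member did. Of 21 pairs, Cnr1 and Dagla were closest, with Pearson r = 0.947 and Spearman rho = 0.958 over 12 libraries (adjusted permutation p = 0.00021 for both). The r was 0.902 without the 2 libraries farthest from the median of Cnr1, 0.970 for deviations from group means, and 0.850 in the 9 libraries whose sum is under 1100000. Cnr1 and Mgll went opposite ways, with r = -0.911 (adjusted permutation p = 0.00136) and rho = -0.755 (adjusted permutation p = 0.0441), r = -0.780 without the 2 farthest libraries and r = -0.563 in the 9 libraries. Dagla and Mgll gave r = -0.831 (adjusted permutation p = 0.0077) and rho = -0.615 (adjusted permutation p = 0.119), and r = -0.354 in the 9 libraries. Among the 9 libraries the relation of the receptor with the alpha lipase thus stood at a higher r than that of either with Mgll, a difference that was not tested. No pair with Napepld, Daglb or Abhd6 passed an adjusted p under 0.05 over the 12 libraries. In the 9 libraries Napepld gave r = 0.780 with Cnr1, 0.797 with Dagla and 0.783 with Faah, against 0.284, 0.382 and 0.557 over all 12. Dagla and Faah passed by rank only (rho = 0.769, adjusted permutation p = 0.0441, r = 0.604, adjusted permutation p = 0.160). All values share the scaling of their library.

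Another measure moved with Cnr1, Dagla and Mgll over the 12 libraries. A length index was taken for each library as the median log2 deviation from the 12-library mean of 2322 genes whose main transcript is 5000 bases or longer, minus that of 2138 genes whose main transcript is under 1000 bases. It was -0.40 in ethanol replicate 2, -0.38 in ethanol + stress replicate 2 and -0.30 in ethanol + stress replicate 3, and -0.15 to 0.30 in the other 9 libraries. The index went with Cnr1 at r = 0.958 and rho = 0.965 (adjusted permutation p = 3.5e-05 and 7e-05 over 7 genes), with Dagla at r = 0.956 and rho = 0.923 (adjusted permutation p = 3.5e-05 and 0.000315) and with Mgll at r = -0.874 and rho = -0.797 (adjusted permutation p = 0.000863 and 0.00653). In the 9 other libraries r was 0.904, 0.859 and -0.494, and without the 2 farthest libraries it was 0.948, 0.912 and -0.726. The main transcripts of Cnr1 and Dagla (5807 and 5634 bases) are among the long ones and that of Mgll has 3676 bases. The part of transcript length in these relations was not tested beyond the trend removal given next. Daglb, Faah, Napepld and Abhd6 gave r between 0.217 and 0.446, with adjusted permutation p of 0.260 to 0.487. In the 9 other libraries, however, r was 0.603 for Napepld and 0.606 for Abhd6, larger in size than that of Mgll there. Without the 2 farthest of the 12 libraries their r was 0.540 and 0.590, smaller in size than that of Mgll. After a smooth trend over transcript length had been taken out of every library, the log2 difference of Cnr1 over both ethanol-exposed groups was -0.26 and that of Mgll 0.17 (adjusted p = 0.730 for both).

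**Figure D3:**
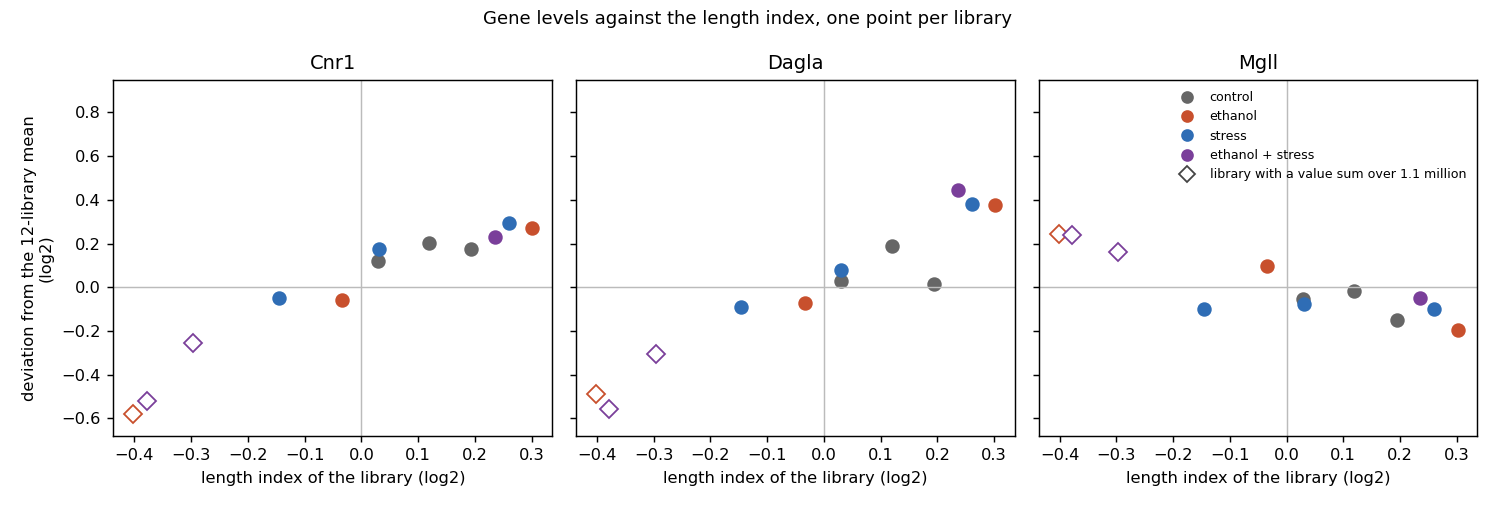
Deviation of Cnr1, Dagla and Mgll from their 12-library means (vertical axis, log2) against the length index of the library (horizontal axis, log2), with 1 point per library coloured by group. Cnr1 and Dagla rise along the index (r = 0.958 and 0.956) and Mgll falls (r = -0.874); the open diamonds, the 3 libraries with a value sum over 1100000, form the low end of the index.

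Cell type markers were read beside these values. The 9 interneuron markers had a summed level of 1527 to 1822 TPM over the 12 libraries, the 8 pyramidal cell markers of 1207 to 1405 TPM and the 6 dentate granule cell markers of 130 to 176 TPM, so the neurons of the hippocampus were represented in each library. In the 3 libraries that were lowest for Cnr1, the summed astrocyte markers (7 genes) were 3267 to 3519 TPM against 2237 to 2863 TPM in the other 9, the 6 microglia markers 284 to 331 TPM against 208 to 268 TPM, and the 5 blood markers 3977 to 6815 TPM against 1603 to 3472 TPM. The 6 oligodendrocyte markers summed to 5354 to 6167 TPM there and to 2824 to 5670 TPM in the other 9. Their median log2 difference was -0.12 over both ethanol-exposed groups and 0.01 in ethanol + stress, so the sum need not stand for each gene. The interneuron and pyramidal sums overlapped between these libraries and the rest, but a few abundant genes make up much of both sums. Gene by gene, the interneuron list had a median log2 difference of -0.19 over both ethanol-exposed groups and -0.21 in ethanol + stress. The pyramidal list stood at -0.09 and -0.14 in the same order, against 0.02 for all genes. These medians were not taken without the 3 libraries. In each comparison 0 of the 9 interneuron and 0 of the 8 pyramidal cell markers were called. Over both ethanol-exposed groups 1 of the 6 dentate granule cell markers was called lower (list median -0.15), and in the interaction 1 of the 6 microglia markers was called, where 1.12% and 0.461% of all genes were. Over the marker lists and 6 comparisons, such single calls are near that background. All 5 blood genes were also called higher than control in ethanol and in ethanol + stress. Choroid plexus markers ran from 41.2 to 7253 TPM, and 0 of 7 were called in any comparison. The part of these cell types in the levels of the 7 genes was not tested. In whole tissue, fewer cells of a type and less RNA per cell cannot be told apart.

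For each gene the measured genes with the most similar course over the 12 libraries were listed among 13857 protein-coding genes. For Cnr1 these included Acsl1 (r = 0.989) and Ugcg (0.989), and for Dagla they were Frrs1l, Adcy9 and Unc5a (0.983 each). Mgll came closest to Csnk1g2 (0.962), Pole4 (0.958) and Spopl (0.954). The closest partners of the other genes were less alike, at 0.908 for Faah with Bloc1s6, 0.878 for Daglb with Noc4l, 0.874 for Napepld with Bhlhe22 and 0.849 for Abhd6 with Ints8.

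The 7 genes have 33 transcripts in the table, of which 26 passed the filter and were tested, and 0 were called at an unadjusted limma p under 0.01 in any comparison. Among all 59852 transcripts the share called was 1.26% for ethanol, 0.914% for stress and 1.21% for ethanol + stress against control, 0.854% for the interaction, 1.47% for all ethanol-exposed mice and 0.934% for all separated mice. At p under 0.05 there was 1 member among the 156 tests, Napepld-201 in all separated mice, beside 4.14% of all transcripts there. The shares past that threshold in the order above were 5.43%, 3.88%, 5.57%, 4.06% and 6.52% for the other comparisons. Dagla-201 held 98.3% of the sum of its gene, Daglb-201 96.5% and Abhd6-202 91.8%. For Daglb-201 the shares in ethanol (94.9 to 96.1%) lay below those in control (96.9 to 97.7%), without overlap, as did the groups for 10.6% of the main transcripts of all genes in that comparison. Faah-201 held 78.9% of the Faah sum, and the next, Faah-206 with 7.89%, is annotated as a retained intron.

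Cnr1-201 held 78.2% of the Cnr1 sum and Cnr1-202 20.1%. They differ in the first exon, at 33924632 to 33925158 and at 33926202 to 33926694, and their coding sequence of 1419 bases is the same. Only 40 of the 5777 stretches of 31 bases in Cnr1-201, and 434 of 5731 in Cnr1-202, occur in no other Cnr1 transcript, so the split rests on the first exons. The share of Cnr1-202 was 15.3 to 20.2% in control, 15.0 to 26.1% in ethanol, 20.1 to 22.5% in stress and 15.6 to 25.0% in ethanol + stress, and the test of the Cnr1-201 share called no difference from control. Cnr1-201 itself, which carries most of the gene's level, gave a log2 difference of -0.34 over both ethanol-exposed groups (95% interval -0.72 to 0.03, adjusted p = 0.770). It was -0.48 without ethanol + stress replicate 1, past the unadjusted threshold of 0.01 (adjusted p = 0.428), -0.22 without ethanol replicate 2, and 0.048 without the 3 libraries whose sum is over 1100000 (adjusted p = 0.982).

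Mgll has 3 transcripts over 10% of the gene sum, Mgll-204 with 58.8%, and Mgll-207 and Mgll-201, which the table puts at 22.9% and 13.4%. Mgll-204 and Mgll-201 share a coding sequence of 909 bases from different first exons, while Mgll-207 has 957 coding bases. The added bases lie at the start of its coding sequence, where they stand in capitals, followed by the first 30 bases of the other form.
Mgll-207: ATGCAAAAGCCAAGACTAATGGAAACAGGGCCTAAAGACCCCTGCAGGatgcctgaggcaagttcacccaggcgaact
Mgll-204: atgcctgaggcaagttcacccaggcgaact
Mgll-201 and Mgll-207 have no stretch of 31 bases of their own, so the split between them is not well determined and only their sum is compared between groups. The shares of Mgll-204 were 61.8, 54.4 and 63.2% in control, 66.6, 67.0 and 54.9% in ethanol, 60.5, 59.8 and 58.8% in stress, and 50.3, 50.5 and 57.5% in ethanol + stress. Ethanol + stress replicates 1 and 2 had the lowest shares of all, and replicate 3 lay within the control range. The group showed a mean difference from control of -7.09 percentage points (95% limma interval -15.5 to 1.33, adjusted p = 0.906). Without the 3 libraries it was -9.57 points, with replicate 1 alone left in the group. The ranges of these groups overlapped. The sum of Mgll-201 and Mgll-207 held 31.4 to 42.6% in control, 25.7 to 38.6% in ethanol, 34.3 to 38.3% in stress and 40.2 to 43.2% in ethanol + stress. The ethanol + stress range overlapped that of control, and the sum was not tested.

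Napepld-202 held 68.7% of the Napepld sum and Napepld-201 31.3%. They begin within 2 bases of each other, share a coding sequence of 1188 bases, and differ in the length of the first exon (420 and 192 bases). Only 31 of the stretches of Napepld-201 are its own. Its share was 22.3, 27.2 and 26.5% in control, 26.98, 8.74 and 39.1% in ethanol, 27.9, 39.9 and 26.4% in stress, and 50.8, 38.1 and 34.3% in ethanol + stress. All 3 ethanol + stress mice lay above all 3 control mice, and the ethanol mice spread over both ranges. Such a separation was seen for 10.5% of the main transcripts of all genes in the same comparison. The share of Napepld-202 differed from control by -15.7 percentage points in ethanol + stress (95% interval -32.4 to 0.93, adjusted p = 0.906). It differed by -25.5 points, past the unadjusted threshold of 0.01 (adjusted p = 0.858), where ethanol + stress replicate 1 alone stood for its group, after the 3 libraries with a sum over 1100000 were left out. The level of Napepld-201 differed between separated and not separated mice by 0.66 on the log2 scale (95% interval 0.02 to 1.30, adjusted p = 0.9998), and by 0.88 without ethanol replicate 3, past the unadjusted threshold of 0.01 (adjusted p = 0.943), but by 0.41 without ethanol replicate 2 (adjusted p = 0.958). At 28.5 to 242 read pairs per library, this transcript is among the less deeply read of those named.

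Of the main transcripts' shares, 0 of 7 were called at p under 0.01 in any comparison. The shares called among 11676 genes were 1.26% for ethanol, 1.04% for stress and 1.11% for ethanol + stress against control, 0.865% for the interaction, 1.5% for all ethanol-exposed mice and 1.04% for all separated mice. At p under 0.05 the count of members was 0 too, beside 5.97%, 4.39%, 5.5%, 4.15%, 6.98% and 4.14% of all genes in the same order. Between stress and control the main transcript's share was apart for 0 of 7 members, and for 9.28% of all genes.

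**Figure D4:**
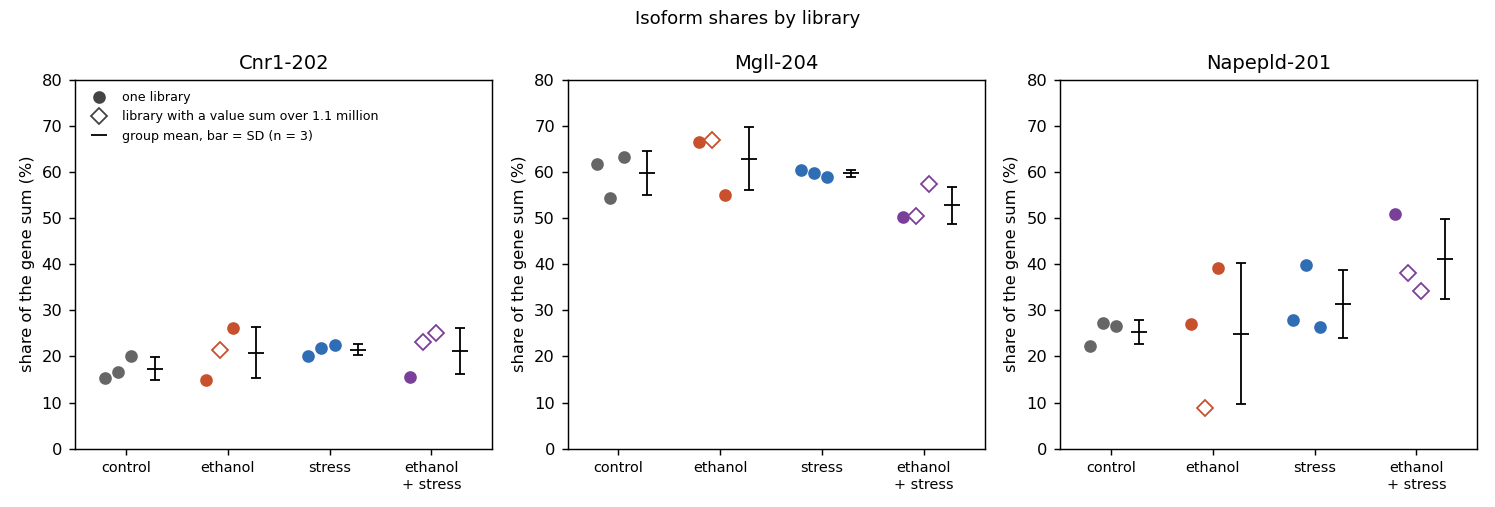
Percent of the gene sum held by Cnr1-202, Mgll-204 and Napepld-201 (vertical axes, starting at 0) in each library by group, with the mean and SD of 3 mice. Napepld-201 lies at 34.3 to 50.8% in ethanol + stress and at 22.3 to 27.2% in control, and at 8.74 to 39.1% in ethanol.

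Around these 7 genes, 34 further genes of the pathway were listed in 5 groups, and 32 of them were tested. Among other routes of synthesis 1 of 7 genes was called, Gdpd3, in ethanol + stress against control and over both ethanol-exposed groups, where 0.971% and 1.12% of all genes were, and among other breakdown enzymes 0 of 5. With 32 genes and 6 comparisons, 1 called gene is near that background. The count was 0 of 4 for other receptors, 0 of 10 for receptor partners and lipid carriers, and 0 of 6 for the Gq-coupled receptors and G proteins that drive Dagla. The medians of the lists over the ethanol-exposed mice were -0.04, 0.00, 0.23, 0.03 and -0.13 on the log2 scale in that order, beside 0.02 for all genes. The genes with the highest level in each list were Gde1 (median 233 TPM), a phosphodiesterase of an alternative anandamide route, Abhd12 (305 TPM), a 2-arachidonoylglycerol hydrolase, Ppara (2.49 TPM), a nuclear receptor for N-acylethanolamines, Fabp5 (265 TPM), a carrier of fatty acids, and Grm5 (166 TPM), a metabotropic glutamate receptor. Cnr2, the gene of the second cannabinoid receptor, was near the floor, at 0.08 to 0.27 TPM.

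Gdpd3 encodes a lysophospholipase D that can form N-acylethanolamines from lyso-precursors. It stood at 1.29, 0.64 and 1.41 TPM in control, 1.51, 1.22 and 1.47 TPM in ethanol, 1.14, 0.99 and 0.97 TPM in stress, and 3.18, 2.48 and 2.20 TPM in ethanol + stress. The ethanol + stress mice lay above the control mice without overlap, as the groups did for 10.2% of all genes in either direction. The log2 difference from control was 0.98 in ethanol + stress (95% interval 0.51 to 1.44, adjusted p = 0.791) and 0.64 over both ethanol-exposed groups (0.31 to 0.97, adjusted p = 0.760). Both passed the unadjusted threshold of 0.01 and neither the adjustment over all genes, and the interaction of ethanol and stress was not called (adjusted p = 0.99998). The difference in ethanol + stress was between 0.74 and 1.12 when any 1 library was left out. It was 1.23 without the 3 libraries with a sum over 1100000, where only replicate 1, the highest of the group, was left. With the trend over length removed, the difference over both ethanol-exposed groups was 0.54 and was no longer called.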

How the data were processed

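Hippocampal total RNA of 12 mice had been depleted of ribosomal RNA, made into stranded libraries and sequenced as read pairs. Per the labels and the study's methods, the authors used kallisto against the Ensembl mouse transcriptome (mm10) and sleuth, whose versions are not given in the sources used here. The deposited signal values are TPM per transcript, corrected for length and taken as scaled again between libraries, given their sums of 889222 to 1173650 per library. Of 115270 transcripts, 113580 were matched to GENCODE release 21 of the mouse; unmatched ones held 0.518 to 0.58% of the values. Steps between low values correspond to 12050000 to 14880000 read pairs per library, with 78.7 to 83.5% of low values within 0.1 of a whole read pair, so no count test was run.

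Transcripts were summed per gene. Groups were compared with limma 3.58.1 (R 4.3.3, trended eBayes, 2-sided) on log2(value + 0.5) in a model of all 4 groups, over 18434 genes or 59852 transcripts at 0.1 or more in at least 6 libraries; fold changes of low genes are understated on this scale. Percent shares of the main transcript were fitted over 11676 genes. A call was an unadjusted p under 0.01, with the Benjamini-Hochberg value over all features beside it. Correlations used 100000 permutations, adjusted over 21 pairs or 7 genes. The fits were tested on simulated data with independent noise for each gene. No shift shared within a library was simulated, so behaviour under such a shift was not tested. Named were the 7 genes, their transcripts with at least 10% of the gene sum or called, the called and the highest gene of each pathway list, and, of the 3 genes of most similar course listed per member, 1 to 3; the rest are not reported here. A transcript named outside this rule (Faah-206, and Cnr2 among genes) was chosen after its values were seen. The members and lists were chosen with earlier results of these data known.

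Alternatives were pseudocounts of 0.1 and 1, a minimum of 1 or none, median-of-ratios factors, a common total of 1000000, eBayes without trend, only the groups compared, a replicate block, p under 0.05, a log ratio for shares, and leaving out each library. Chosen after the data were seen were the removal of the length trend, the omission of 3 libraries and the 4-group test.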

Additional observations from a re-analysis of the deposited data

How the results depend on the processing

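Of the counts of called members, 367 values under alternatives equalled the 0 of the main analysis and 11 were 1. Without the 3 libraries whose sum is over 1100000, 1 transcript was called in ethanol + stress and 1 over both ethanol-exposed groups (Faah-203 in both), and 1 share in ethanol + stress (Napepld). At p under 0.05, 1 transcript was called in separated mice (Napepld-201). Leaving out each library in turn gave 0 to 1 called genes over both ethanol-exposed groups (Mgll, without ethanol replicate 3). It gave 0 to 1 called transcripts in ethanol (Mgll-204), in ethanol + stress and over both ethanol-exposed groups (Cnr1-201 without ethanol + stress replicate 1, or Cnr1-202 without ethanol replicate 3) and in separated mice (Napepld-201), and 0 to 1 called shares in separated mice (Mgll).

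Without the 3 libraries, log2 differences changed sign for Cnr1 in ethanol + stress (0.063) and over both ethanol-exposed groups (0.014), for Cnr1-201 over both (0.048), and for Dagla in ethanol + stress (0.37), in ethanol (0.075) and over both (0.20). That fit leaves 1 ethanol + stress mouse, assumed to vary like the others. With any 1 library left out, Dagla in ethanol ranged from -0.36 to 0.075, the latter without ethanol replicate 2. The cause of these changes was not tested. With the length trend removed, Gdpd3 over both ethanol-exposed groups was at 0.54, no longer called (adjusted p = 0.730).

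Same-numbered libraries of different groups did not deviate together over all genes (18 pairs, r from -0.255 to 0.232, 2 over 0.1). Such r cannot tell whether same-numbered mice are littermates, so no pairing was assumed in the main tests. With the replicate block, 0 members were called in any comparison, and Cnr1 over both ethanol-exposed groups stood at -0.31 (adjusted p = 0.803). With 3 mice per group, the spread of Cnr1 and Dagla, not depth, sets the width of the intervals.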
